A study of Mus musculus with 4 samples.

Results

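Foot dermis at E17.5 was compared with back dermis at E14.5 in mouse embryonic skin cells sorted as negative for an Axin2-LacZ reporter, across 7971 genes of 33126 named gene units. A gene entered when its FPKM (fragments per kilobase of transcript, relative to all mapped fragments) reached at least 5 in either library. Of these genes, 5527 reached it in both libraries, 1892 only in the foot and 552 only in the back. The study addressed whether Wnt-responsive cells give the mesenchyme of each body site its own transcriptional character. Embryos carrying Axin2-LacZ, in which LacZ reports the Wnt feedback gene Axin2, were the source of ventral foot skin (E17.5) and of dorsal back skin (E14.5). Dermal cells of each skin were sorted by the reporter into 1 library labelled positive and 1 labelled negative, and every group shared the reporter allele. The number of embryos behind a library, and their sex and litter, are not stated in the labels. Site and stage changed together in this comparison and cannot be told apart.

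Dermal fibroblasts build the collagen and elastic fibres of skin and signal to the epidermis above them. Canonical Wnt signalling in the upper dermis, with BMP, FGF and other secreted factors, helps set whether the epidermis forms hair follicles, as on the back, or sweat glands, as on the mouse foot pad. Mesenchymal cells also keep a record of body position in their Hox and other homeobox genes, and fetal dermis moves from growth toward matrix deposition as it matures.

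Each group held 1 library, so no difference has a replicate check and no p-value is given. Values are FPKM as deposited. Ratios are log2 of foot over back after median-ratio scaling and adding 1 FPKM to each value, so they understate the change of low genes. At the typical gene the deposited foot value was 1.68-fold higher than the back value (0.75 on the log2 scale), and every ratio is relative to that shift. For genes well above 1 FPKM, a ratio between -0.75 and 0 would therefore be above 0 as deposited. Near the entry limit the shift is smaller, as for Egln2, near equal as deposited (5 and 4.96 FPKM) with a ratio of -0.61. The value after ± is a margin that combines the authors' lower and upper bounds of both libraries, and it covers counting and read assignment only. The bounds spanned a median of 14.1% of the FPKM on either side in the foot library and 9.93% in the back library. A value listed at exactly 0 can be a failed estimate, so no fold is given beside it.

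Axin2 was not lower under the negative label in the foot. As deposited, the foot library labelled negative held 12.9 FPKM (10.2 to 15.3) and the foot library labelled positive 9.65 FPKM, and whether these differ beyond their bounds was not tested. The back libraries held 3.13 FPKM (2.63 to 3.64) under the negative label and 4.49 FPKM under the positive. Between the libraries labelled negative, Axin2 was 2.16-fold higher in the foot (log2 1.11 ± 0.33; mm9 chr11:108781663-108812098). Every direction below therefore follows the library labels, and "the foot" and "the back" mean the libraries labelled Axin2-negative unless the positive label is named.

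Both libraries carried the dermal identity of their label. All 15 of 15 fibroblast markers reached at least 5 FPKM in one of them, with collagen chain Col3a1 at 2135 FPKM in the foot and 580 in the back, and the proteoglycan gene Dcn at 1648 and 576. Other cell types left different traces. Haemoglobin and other erythroid markers summed to 1517 FPKM in the foot and 20989 in the back, and keratinocyte markers to 20.1 and 119. Skeletal muscle markers ran the other way, at 60.1 FPKM in the foot against 12.1 in the back. Mast cell markers summed to 270 and 90.2, carried by the protease genes Cma1 (165 and 24.2, both outside their bounds) and Tpsb2 (66.2 and 8.88), while Cpa3 was lower in the foot at 32.7 and 49.9 (log2 -1.32). Macrophage and leukocyte markers summed to 32.8 and 42.7, of which Itgam alone held 25.8 and 11.1. Over the 11 such markers of at least 1 FPKM the median was -1.84, with 0 higher, 8 lower and 4 listed at 0 in the foot. Melanocyte markers summed to 2.02 and 0.916. The endothelial sum of 142 and 66.1 was mostly the joined locus of Ramp2 and Vps25 (128 and 52), whereas the median over the 6 endothelial markers of at least 1 FPKM was -1.06, with 0 higher and 3 lower, all 3 listed at 0 in the foot. Xist, which is transcribed from the inactive X chromosome of female cells, stood at 6.36 FPKM in the foot and 0.002 in the back, while the Y-linked genes Uty, Ddx3y and Eif2s3y stood at 10.2, 8.59 and 16.3 in the foot and 0.939, 4.98 and 8.61 in the back (log2 1.99, 0.04 and 0.16). Of the lists, 8 of 23 keratinocyte, 9 of 23 skeletal muscle and 11 of 25 leukocyte markers reached 1 FPKM in either library, and the Krt14 locus, Krt10 and the haem synthesis gene Alas2 were listed at 0 in the foot. What part cell makeup or embryo sex had in the differences below was not tested. In a sorted population sequenced in bulk, fewer cells of a type and less RNA per cell cannot be told apart.

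Across the 7971 genes, 1105 were at least 2-fold higher in the foot (13.9%) and 1046 at least 2-fold lower (13.1%), together 2151 (27.0%), which left 5820 within 2-fold. Each scaled list count between the libraries labelled negative stands beside these shares. As deposited, without scaling, the split was 3003 higher and 423 lower. The higher genes included 126 listed at 0 in the back, 60 of them single protein-coding genes, and the lower genes included 105 listed at 0 in the foot, 25 of them protein-coding. Without any gene listed at 0, 979 genes were higher (12.6%) and 941 lower (12.2%). Differences of at least 8-fold were less common, at 57 higher and 67 lower genes with values above 0 in both libraries. The 2-fold line itself separated near-equal genes: Slc25a36 (15.7 FPKM in the foot and 4.3 in the back) and Sf3a3 (17.2 and 21.3) lay just past it, and Paics (167 and 49.3) and Dock1 (5.5 and 7.34) just short of it. At the entry limit, Egln2 was just inside at 5 FPKM in the foot and 4.96 in the back, and Sh2b1 just outside at 4.24 and 4.99.

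**Figure D1:**
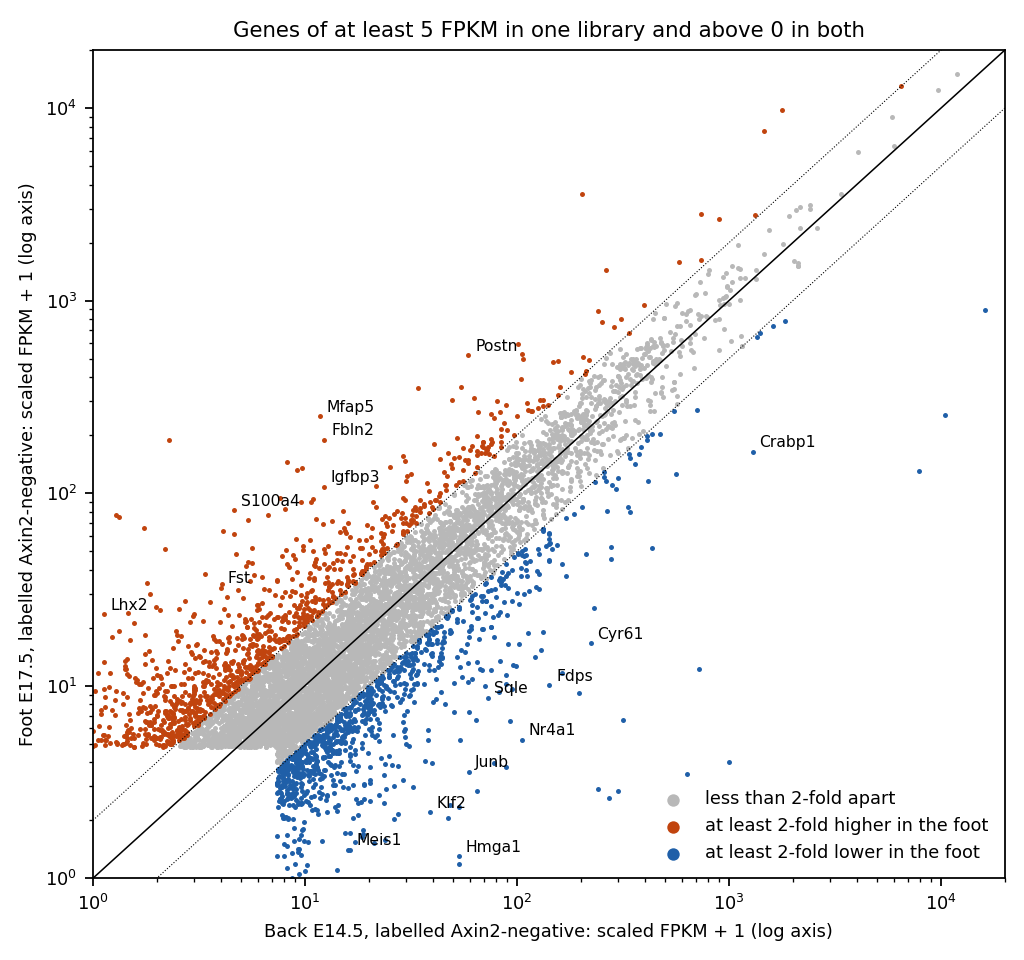
Each point is 1 gene above 0 in both libraries (7732 genes; 8 further loci lay off the axes), placed by its scaled FPKM + 1 in the back (horizontal, log axis) and in the foot (vertical, log axis). The solid line marks equal values and the dotted lines 2-fold; Mfap5, Fbln2 and Postn stand far above the line, and Hmga1, Nr4a1 and Fdps far below it.

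Genes higher in the foot included several of the matrix. Mfap5, which encodes a microfibril glycoprotein, stood at 331 FPKM in the foot against 8.43 in the back, 21.5-fold higher (log2 4.43 ± 0.25), although the foot value lay above its own bounds of 277 to 312. Fbln2, the gene of the elastic fibre protein fibulin-2, stood at 249 FPKM against 8.92 (log2 3.94 ± 0.18). Postn, which encodes the matricellular protein periostin, stood at 687 FPKM against 45.6 (log2 3.14 ± 0.09). The bounds of all 3 genes were far apart between the libraries.

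Other genes far higher in the foot act outside the matrix. S100a4, a calcium-binding protein gene widely used as a fibroblast marker, reached 106 FPKM in the foot against 2.86 in the back (17.6-fold). Pam, whose enzyme amidates secreted peptides, reached 82.5 against 2.43, and Tac1, the precursor of the neuropeptide substance P, reached 94 against 3.43. Anxa1, an annexin gene, stood at 173 FPKM against 6.45, the chemoattractant precursor gene Rarres2 at 177 against 6.79, and the tetraspanin gene Cd9 at 465 against 26.1. All 6 were also at least 6-fold apart between the libraries labelled positive, where the log2 ratios were 3.26, 2.78, 3.23, 3.70, 2.85 and 3.12 in the same order.

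Genes far lower in the foot had varied roles. Rsph3a, a radial spoke gene of cilia, stood at 234 FPKM in the back and 2.44 in the foot, the lowest ratio among single protein-coding genes of at least 1 FPKM in both libraries with values inside their bounds (log2 -6.71 ± 0.26). Hmga1, an architectural chromatin protein gene abundant in embryonic cells, stood at 41.1 FPKM in the back and 0.396 in the foot. Genes with near-identical copies, as Hmga1 has, can share reads with them, so its level is uncertain. Ctsh, a lysosomal protease gene, stood at 37.3 FPKM in the back and 1.84 in the foot (log2 -4.34 ± 0.56). Crabp1 is the gene of a cytosolic retinoic acid binding protein and a marker of upper dermis. It stood at 1018 FPKM in the back and 215 in the foot (log2 -2.98 ± 0.10). The foot value lay above its own bounds of 154 to 176, so the margin understates the uncertainty. Crabp1 was also lower in the foot between the libraries labelled positive, at 225 against 802.

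Genes of cholesterol biosynthesis and its regulation were lower in the foot almost throughout. Cells make cholesterol from acetyl-CoA through mevalonate, farnesyl diphosphate and squalene, and raise or lower these enzymes together through sterol-responsive transcription factors of the SREBP family. Of 20 genes listed, 16 entered the comparison, of which 14 were at least 2-fold lower, 0 were higher and 2 were within 2-fold. The count depended on the scaling: as deposited, 10 of the 16 were lower and 0 higher. The list's median ratio was -2.11 over its 18 genes of at least 1 FPKM, against -0.01 over all 12749 such genes. The lower share stands beside 13.1% over all genes.

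Genes of early and middle steps were among those lower. Mvk, the mevalonate kinase gene, stood at 3.23 FPKM in the foot and 9.66 in the back (log2 -1.95 ± 0.49). Fdps, which makes farnesyl diphosphate, stood at 12 FPKM in the foot and 111 in the back (log2 -3.81 ± 0.30), the back value lying above its own bounds of 69.2 to 81.8. Fdft1, the gene of squalene synthase, was listed at 0 in the foot and stood at 15.7 FPKM in the back.

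Several genes of later steps were lower as well. Sqle, which encodes squalene epoxidase, stood at 10.1 FPKM in the foot and 56.5 in the back (log2 -3.07 ± 0.20; the back value lay outside its bounds). Sc4mol, a sterol demethylation enzyme now named Msmo1, stood at 15.4 and 76.7 (-2.96 ± 0.25), and the demethylase gene Cyp51 at 6.4 and 22.2 (-2.32 ± 0.20). Hsd17b7 stood at 1.1 and 6.21, Idi1 at 3.2 and 6.69 and Dhcr7 at 4.96 and 9.35. The genes within 2-fold were Nsdhl (log2 -0.94 ± 0.19) and Sc5d (-0.89 ± 0.26), at 16.2 and 6.06 FPKM in the foot and 19.2 and 7.38 in the back. Lss, the cyclase gene, did not enter, at 1.16 FPKM in the foot and 1.24 in the back. Hmgcs1 was listed at 0 in both libraries and has no value here.

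Regulatory and transport genes ran the same way. Insig1, the sterol sensor partner that holds SREBP in the endoplasmic reticulum and is itself one of its targets, stood at 3.83 FPKM in the foot and 18 in the back (log2 -2.61 ± 0.26). Stard4, a cholesterol carrier gene, stood at 3.34 and 7.81 (-1.63 ± 0.57). Between the libraries labelled positive, 14 of the 16 genes were at least 2-fold lower in the foot, and the median was again -2.11. That pair shares no library with this one, but both come from the same skins and stages, so it is not a replicate. Over all 8005 genes entered between the libraries labelled positive, 14.7% were higher and 15.8% lower, the shares beside which each count for those libraries stands. The 14 were not the same genes in both pairs, since Stard4 had a ratio of 0.01 between the libraries labelled positive.

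Promoter windows of the 4 lowest of these genes with a window are shown, since the group moved together. Each runs from 250 bases before to 50 bases after the RefSeq start on GRCm38.p6, 5′ to 3′ on the gene's strand, and capitals mark CCAAT or its reverse complement ATTGG, the box bound by the factor NF-Y. Sc4mol lies at chr8:64733529-64733828 on the minus strand, Insig1 at chr5:28071162-28071461 on the plus strand, Cyp51 at chr5:4104648-4104947 on the minus strand and Hsd17b7 at chr1:169969156-169969455 on the minus strand.
Sc4mol: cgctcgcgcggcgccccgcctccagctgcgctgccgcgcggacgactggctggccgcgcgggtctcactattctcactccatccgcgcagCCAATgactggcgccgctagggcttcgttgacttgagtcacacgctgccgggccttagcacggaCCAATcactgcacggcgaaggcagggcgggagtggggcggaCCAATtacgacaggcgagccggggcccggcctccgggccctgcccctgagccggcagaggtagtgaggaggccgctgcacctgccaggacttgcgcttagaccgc
Insig1: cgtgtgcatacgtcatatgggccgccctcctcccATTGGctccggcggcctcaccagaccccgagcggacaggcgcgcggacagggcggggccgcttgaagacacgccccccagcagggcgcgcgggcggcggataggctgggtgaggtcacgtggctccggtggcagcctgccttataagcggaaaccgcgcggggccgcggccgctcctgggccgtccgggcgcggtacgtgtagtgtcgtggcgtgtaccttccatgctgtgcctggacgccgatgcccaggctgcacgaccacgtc
Cyp51: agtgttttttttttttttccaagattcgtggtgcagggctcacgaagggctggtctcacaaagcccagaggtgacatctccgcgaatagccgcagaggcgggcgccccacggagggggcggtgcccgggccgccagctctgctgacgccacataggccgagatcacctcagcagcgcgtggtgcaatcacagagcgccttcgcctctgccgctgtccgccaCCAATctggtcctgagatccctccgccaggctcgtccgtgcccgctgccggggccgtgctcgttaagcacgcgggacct
Hsd17b7: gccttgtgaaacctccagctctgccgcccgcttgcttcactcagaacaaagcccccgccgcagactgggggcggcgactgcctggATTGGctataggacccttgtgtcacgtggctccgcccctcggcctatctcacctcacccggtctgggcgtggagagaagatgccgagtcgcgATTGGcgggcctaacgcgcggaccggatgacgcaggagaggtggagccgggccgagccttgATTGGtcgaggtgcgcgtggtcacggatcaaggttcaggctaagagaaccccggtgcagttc
Sc4mol and Hsd17b7 each held 3 such boxes, and Insig1 and Cyp51 each held 1.

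Across the list, 13 of 20 genes matched a RefSeq window, Fdps and Sqle not among them, and 13 of 13 held CCAAT on either strand. These 13 included Nsdhl and Sc5d, within 2-fold, and Lss, which did not enter, so CCAAT was not particular to the lower genes. The same letters were in 41.1% of the 27025 genes with a window and in 44.3% of the 4642 protein-coding genes of the comparison that had one. The GC box GGGCGG, on either strand, was also in 13 of 13, but it was common, at 71.9% of those 4642 genes. One spelling of the sterol element, TCACNCCAC on either strand, was in 1 of 13 against 1.44% of all genes. In all, 6 motifs were searched, and matches were counted whether or not they overlapped another motif. These matches describe letters in the window and show no binding.

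Immediate early genes were lower in the foot in nearly every case. They are switched on within minutes by growth factors, stretch or stress, and their products form transcription factors such as AP-1. Of 26 listed, 19 entered, of which 18 were at least 2-fold lower in the foot (13.1% over all genes) and 0 were higher. As deposited, 13 of the 19 were lower and 1 higher. The median ratio was -2.0 over 22 genes of at least 1 FPKM. Nr4a1, an orphan nuclear receptor gene, stood at 5.61 FPKM in the foot and 82.2 in the back (log2 -4.33 ± 0.33). Klf2, a zinc finger factor gene, stood at 1.58 and 29.7 (-4.14 ± 0.31), and the AP-1 subunit gene Junb at 3.4 and 45.7 (-4.05 ± 0.32). Their bounds did not overlap between the libraries.

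The AP-1 subunits did not differ equally. Fos stood at 40.5 FPKM in the foot and 99.3 in the back (log2 -2.0 ± 0.13), Fosl2 at 2.01 and 15.1 (-3.0 ± 0.17) and Jund at 6.73 and 12.6 (-1.48 ± 0.33). Jun, counted in 1 locus with Gm12703, stood at 8.32 and 45.7. The heat shock genes Hspa1a and Hspa1b, joined with Gm10501, had the lowest ratio of the list, at 2.12 FPKM in the foot and 213 in the back. That back value lay above its bounds of 196 to 206. Egr1 was the single gene of the 19 not lower by 2-fold, 1.45-fold higher in the foot, with 6.98 FPKM in the back (log2 0.54 ± 0.19). Between the libraries labelled positive, 17 of the 19 were lower in the foot, and the median was -2.18.

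**Figure D2:**
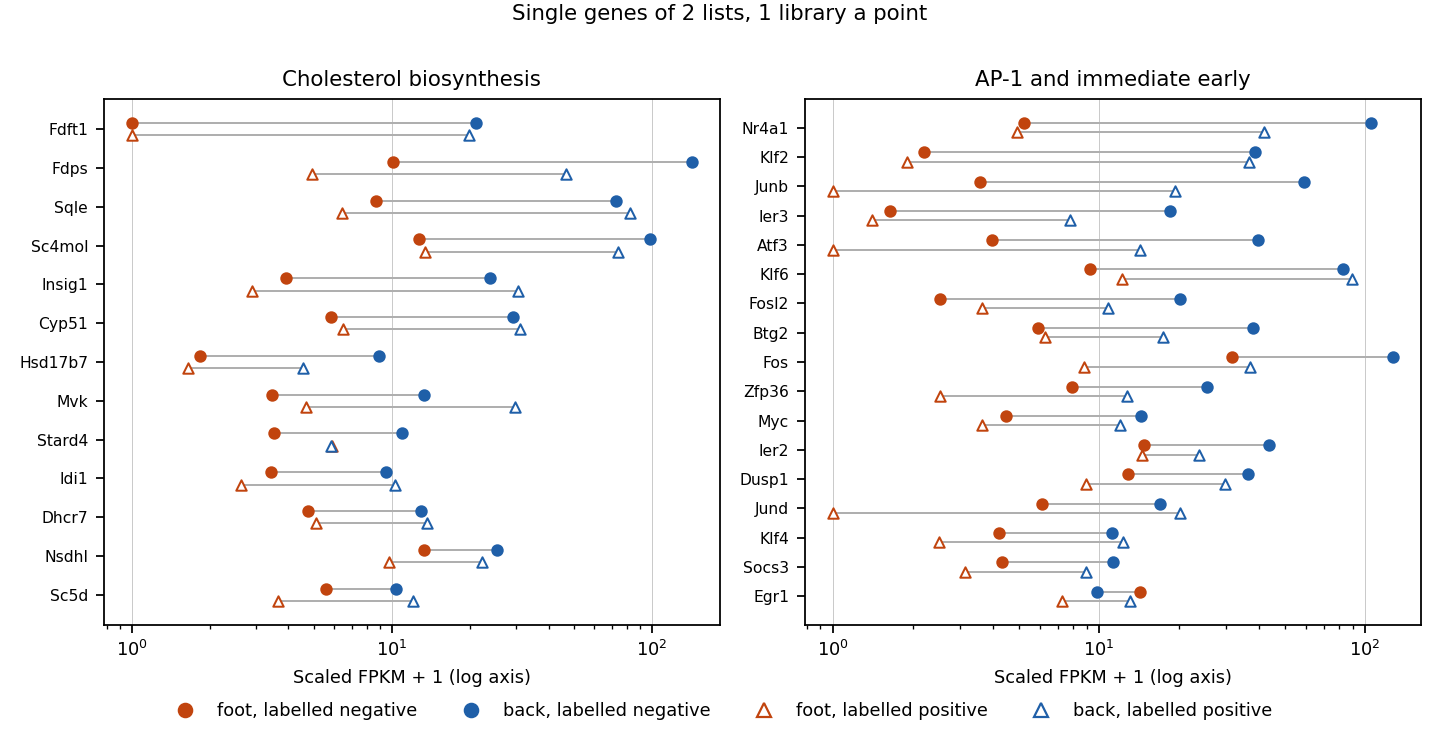
Scaled FPKM + 1 (log axis) of single genes of the cholesterol list (left) and the immediate early list (right) in each of the 4 libraries, 1 point a library and 1 line a foot-back pair; a value of 1 is a gene listed at 0 or nearly so. In both pairs the foot point lies left of the back point for all but a few genes, such as Egr1 in the libraries labelled negative and Stard4 in those labelled positive.

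Of 21 canonical Wnt target genes listed, 13 entered, of which 8 were at least 2-fold lower in the foot (13.1% over all genes) and 1 higher, with a median ratio of -1.32. The count depended on the scaling: as deposited, 3 of the 13 were lower and 1 higher. Lef1, a nuclear partner of beta-catenin, stood at 3.48 FPKM in the foot and 8.31 in the back (log2 -1.67 ± 0.27), and its relative Tcf7 at 4.45 and 6.78 (-1.14 ± 0.29). Tnfrsf19, a receptor gene induced by Wnt, stood at 1.58 and 9.17 (-2.53 ± 0.27). Apcdd1, an inhibitor of Wnt signalling at the membrane, stood at 37 and 61.9 (-1.46 ± 0.11), and the intracellular inhibitor Nkd1 at 7.35 and 12.1 (-1.32 ± 0.17). The gene that was higher is Axin2 itself, the gene of the reporter. Between the libraries labelled positive the median was -0.82 and 4 of the 13 were at least 2-fold lower.

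Of 6 genes of Wnt ligands and their secretion entered, 1 was higher and 2 lower, and as deposited 3 were higher and 1 lower. The Wnt genes among them were Wnt5a, within 2-fold at 43.1 FPKM in the foot and 17.1 in the back (log2 0.56), and Wnt11, at 6.44 and 8.52 (-1.01). Rspo1, an R-spondin that potentiates Wnt receptors, stood at 0.956 FPKM in the foot and 11.3 in the back (log2 -3.16 ± 0.42), whereas Rspo2 stood at 5.13 in the foot and was listed at 0 in the back. The frizzled-related antagonists split too, with Sfrp4 at 9.26 FPKM in the foot against 0.303 in the back and Sfrp5 at 1.84 against 5.86. Dkk3 was higher in the foot, at 14.1 against 0.968 (log2 2.39 ± 0.22). Of 9 Wnt inhibitor genes entered, 3 were higher and 2 lower, and the median was -0.01.

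BMP antagonists and TGF-beta genes were more often higher in the foot. Of 11 BMP antagonist genes entered, 7 were at least 2-fold higher and 2 lower (13.9% and 13.1% over all genes), and the median was 0.56. With scaling by summed FPKM without the 100 highest loci, 5 were higher and 2 lower, and as deposited 8 and 2. Fst, which encodes follistatin, a trap for activins and BMPs, stood at 41.3 FPKM in the foot and 2.36 in the back (8.07-fold; mm9 chr13:115242441-115249159). Sostdc1, an antagonist of BMP and Wnt ligands known from hair and tooth placodes, stood at 39.1 and 6.27 (log2 1.77 ± 0.24). Rgma, listed here although it encodes a BMP co-receptor and guidance protein, was among the lower, at 1.67 and 7.72.

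The BMP and GDF list had 4 higher and 2 lower of 7 genes entered (13.9% and 13.1% over all genes). The higher ones included Bmp3, at 8.55 FPKM in the foot against 0.185 in the back. Gdf10 had a ratio of 2.18 ± 0.23, with 1.7 FPKM in the back, but -0.22 between the libraries labelled positive. In those libraries 2 of the 7 were higher and 0 lower. Bmp1, listed here although it encodes a collagen-processing protease and no ligand, was lower at 16.4 against 33.1, the back value outside its bounds. Of 11 TGF-beta genes 5 were higher and 1 lower, and the median was 0.63. The induced matrix protein gene Tgfbi stood at 65.4 against 5.59 (log2 2.64 ± 0.15), and the feedback inhibitor gene Smad7 at 9.75 against 1.74 (1.38 ± 0.42). Tgfbr3, the betaglycan co-receptor gene, was the lower one, at 2.3 against 6.05. The other lower entry of the BMP and GDF list was a locus joining Gdf7 with AC122860.1. It was listed at 0 in the foot and at 334 FPKM in the back, but the back bounds ran from 0 to 1671. Its margin on the log2 scale was 5.53.

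Elastic fibre genes were higher in the foot in 10 of the 21 that entered and lower in 1 (13.9% and 13.1% over all genes), with a median ratio of 0.94. Elastic fibres hold a core of elastin on a scaffold of fibrillin microfibrils, and lysyl oxidases crosslink the elastin. Eln, the elastin gene, stood at 197 FPKM in the foot and 33.4 in the back (log2 1.79 ± 0.15), with 1 value outside its bounds. Fbn1, the main fibrillin of mature microfibrils, stood at 58.8 and 6.29 (2.34 ± 0.11), while Fbn2, the fibrillin of embryonic tissue, stood at 22.1 and 17 (-0.35 ± 0.08). In deposited FPKM, which is per length, Fbn1 exceeded Fbn2 in the foot and was below it in the back.

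Assembly and crosslinking proteins followed. Fbln5, which tethers elastin to microfibrils, stood at 61.3 FPKM in the foot and 5.33 in the back (log2 2.61 ± 0.12), and Mfap4 at 403 and 38.2 (2.63 ± 0.10). The oxidase genes Lox (123 and 22; log2 1.70 ± 0.08) and Loxl1 (53.2 and 5.85; 2.29 ± 0.27) were higher, and Loxl2 lay within 2-fold (13 and 7.01; 0.13 ± 0.16). Efemp1, the gene of fibulin-3, was the lower member at 18.4 and 43.9 (-1.92 ± 0.23). Between the libraries labelled positive 5 of the 21 were higher and 3 lower (14.7% and 15.8% over all genes there), and the list's median was 0.08. In those libraries Eln stood at 47.8 FPKM in the foot and 48.8 in the back, and Fbn1 at 8.08 and 18.1.

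**Figure D3:**
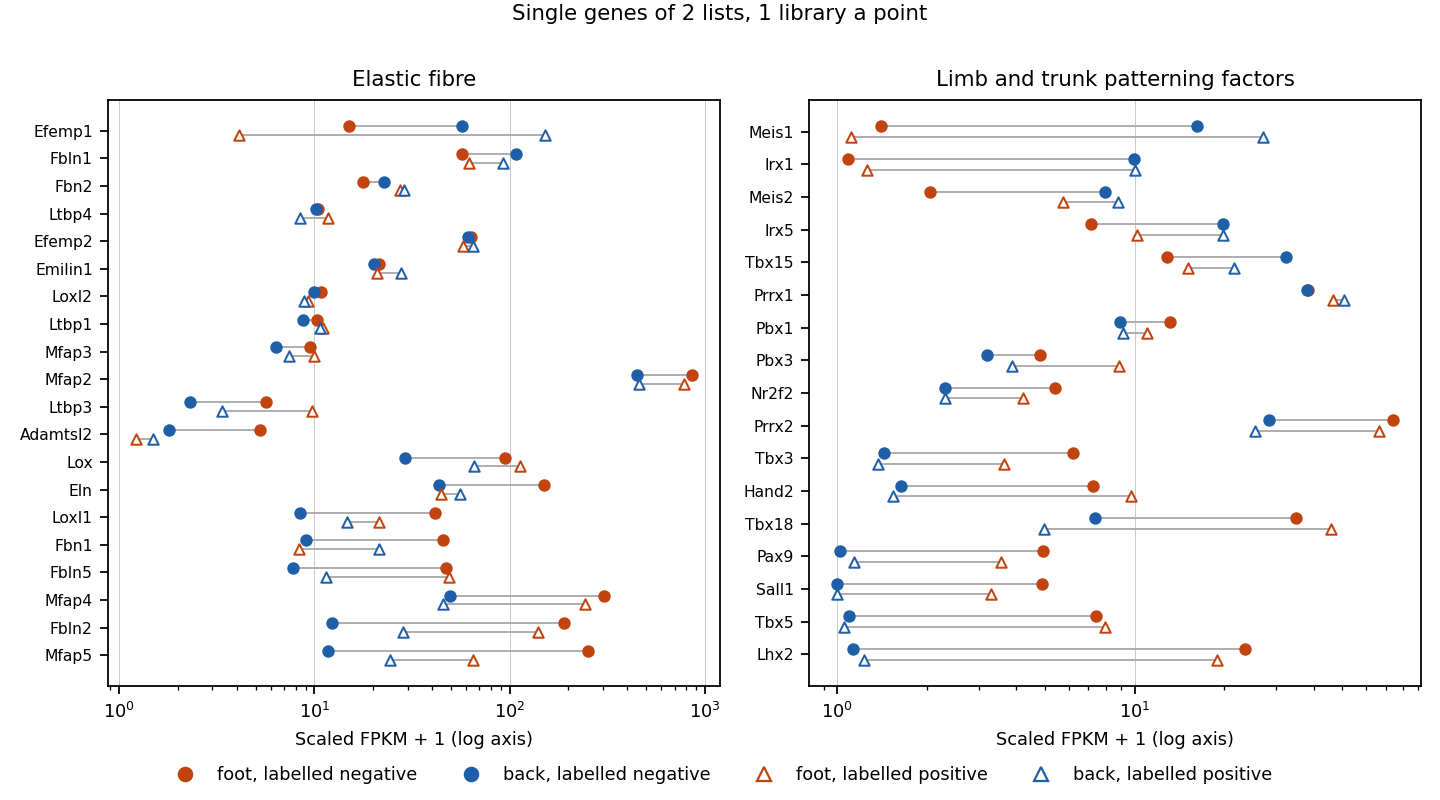
Scaled FPKM + 1 (log axis) of single elastic fibre genes (left) and patterning factor genes (right) in each of the 4 libraries, 1 point a library and 1 line a foot-back pair. Eln and Fbn1 are higher in the foot for the negative label and lower for the positive label, whereas Lhx2 and Tbx5 are higher and Meis1 and Irx1 lower in the foot for both labels.

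Of 10 fibrillar and FACIT collagens entered, 4 were at least 2-fold higher and 0 lower (13.9% and 13.1% over all genes), and the median was 0.68. Of 10 basement membrane and other collagens, 2 were higher and 3 lower. Col14a1, a collagen of the fibril surface, stood at 61.9 FPKM in the foot and 6.15 in the back (log2 2.44 ± 0.13). Col3a1 had a ratio of 1.13 ± 0.02, with the value of each library just below its own bounds. The main chains of type I collagen lay near 0, with Col1a1 at -0.10 ± 0.03 and Col1a2 at -0.32 ± 0.04. Of 22 genes that modify and export collagen, 20 were within 2-fold, although 11 were higher as deposited, and the prolyl hydroxylase subunit gene P4ha3 was the higher one (9.08 and 0.681). Among the basement membrane collagens, Col4a1 stood at 6.04 against 15.5 (-1.89 ± 0.14).

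Matricellular proteins, which signal from the matrix without building it, were listed together with other matrix glycoproteins such as fibronectin, and this list went both ways. Of 16 entered, 8 were higher and 4 lower (13.9% and 13.1% over all genes), and the median was 1.02. The CCN relatives Ctgf and Cyr61, both known targets of the YAP factor, moved apart. Ctgf stood at 12.5 FPKM in the foot and 0.565 in the back (log2 2.60 ± 0.35), and Cyr61 at 20.6 and 174 (-3.75 ± 0.17). Fn1, the fibronectin gene, stood at 23.9 and 103 (-2.79 ± 0.09), but between the libraries labelled positive it stood at 199 and 260 (-0.69). Asporin (Aspn), a small proteoglycan, stood at 108 and 5.54 (3.37 ± 0.18), and of 5 such proteoglycan genes entered 3 were higher and 0 lower. Matrix proteases and inhibitors had 7 higher and 0 lower of 19, among them Mmp2 at 151 and 22.9, the foot value above its bounds of 138 to 149.

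Hox genes, which record body position, differed between the libraries. Hoxd13 and Hoxa13, which pattern the hand and foot, stood at 33 and 21.4 FPKM in the foot and were both listed at 0 in the back (Hoxd13 lies at mm9 chr2:74506367-74509656). Hoxc8, a trunk gene, ran the other way, listed at 0 in the foot and at 6.86 FPKM in the back. Of 6 distal limb Hox loci entered 5 were higher, and the lower one was the joined locus of Hoxc10 and Hoxc5. Of 4 anterior and trunk loci entered, 3 were lower, that same joined locus included, and the higher one, a locus joining Hoxb9 with Gm53, had a margin of 2.95 on the log2 scale. The libraries labelled positive listed Hoxa13 and Hoxd13 at 0 in the back and Hoxc8 at 0 in the foot as well.

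Of 20 other limb and trunk patterning factors entered, mostly homeobox and T-box genes, 10 were higher in the foot and 7 lower (13.9% and 13.1% over all genes), with a median of 0.56 over the 37 of at least 1 FPKM. Which direction held more genes depended on the entry limit: with 5 FPKM required after scaling, 7 of 19 were higher and 9 lower. Lhx2, a LIM homeobox gene of limb mesenchyme, stood at 29.8 FPKM in the foot and 0.102 in the back (20.9-fold; mm9 chr2:38194801-38225253). Tbx5 and Tbx4, the genes of fore and hind limb identity, were both higher in the foot, at 8.5 and 3.55 FPKM against 0.0721 and 0.0122 in the back, and Tbx4 was under the entry limit. Hand2 stood at 8.22 against 0.498. The back had Meis1, a gene of proximal and trunk mesenchyme (12 FPKM against 0.534), Irx1 (7.05 against 0.12) and the Irx2 locus (41 against 0.243). Prrx1, a general marker of limb and skin mesenchyme, lay within 2-fold, at 49.4 and 29.1 (log2 0.02 ± 0.15).

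Markers of dermal layers did not move as blocks. Of 10 lower dermis and fascia genes entered, 4 were higher in the foot and 1 lower (9 and 0 as deposited). Over all genes the scaled shares were 13.9% and 13.1%. The median of the list was 0.71, and its highest genes included Mfap5, Fbn1 and Cd34 (76.6 and 15.4 FPKM, log2 1.52 ± 0.14). Of 12 papillary and upper dermis genes, 3 were higher and 6 lower, and the median was -0.34, but as deposited 4 were higher and 2 lower. Crabp1 and Lef1 were among the lower genes, and Pdpn (30.3 and 4.61) and Prdm1 (6.92 and 0.661) among the higher. Of 10 hair condensate genes 5 were higher and 1 lower (8 and 0 as deposited), including Enpp2, the autotaxin gene, at 69.1 and 6.91, and Tbx18 at 44.7 and 5.01.

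Of 24 G1/S cell cycle genes entered, 9 were at least 2-fold lower in the foot (13.1% over all genes), 0 higher and 15 within 2-fold. The median was -0.82. Of 31 G2/M genes 15 were lower, 1 was higher and 15 were within 2-fold, and the median was -0.91. These counts depended on the scaling: as deposited, 2 G1/S genes were lower and 0 higher, and 5 G2/M genes were lower and 3 higher. Mki67, the proliferation antigen gene, stood at 3.15 FPKM in the foot and 7.46 in the back (log2 -1.63 ± 0.14), the mitotic kinase gene Plk1 at 1.84 and 10.5 (-2.59 ± 0.29), and the replicative helicase gene Mcm3 at 8.42 and 18 (-1.70 ± 0.22). The higher G2/M entry was a locus joining Top2a with a small RNA, SNORA32, whose value lay outside its bounds. Between the libraries labelled positive the medians were -0.29 and -0.64. Cdkn1c, the imprinted gene of the cell cycle inhibitor p57, stood at 966 FPKM in the foot and 225 in the back (1.35 ± 0.06), whereas Cdkn1a, the p21 gene, stood at 3.65 and 9.99 (-1.86 ± 0.33).

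Of 14 genes of the IGF axis, a growth pathway of the fetus, 6 were higher and 3 lower (8 and 0 as deposited). Igfbp3 stood at 141 FPKM in the foot and 8.91 in the back (log2 3.13 ± 0.14), and Igfbp7 at 76.6 in the foot and listed at 0 in the back. Igf2 itself lay within 2-fold (191 and 148). Plagl1, an imprinted zinc finger gene of the growth network, stood at 122 and 7.83 (3.09 ± 0.27), while the imprinted gene Peg3 stood at 11.8 and 54.8 (-2.83 ± 0.13). Hmga1 and Igf2bp3 (3.52 and 7.92), genes of early developmental stages, were among the 3 of 5 timing genes that were lower (13.1% over all genes). As deposited, 1 of the 5 was lower and 1 higher.

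Of 55 ribosomal protein loci 54 were within 2-fold (median 0.20), as were 33 of 38 nuclear oxidative phosphorylation genes (median 0.13). As deposited, 24 and 13 of these were higher in the foot. Of 15 glycolysis and hypoxia genes entered, 5 were lower and 0 higher (1 and 1 as deposited), and the median was -0.56, among them Ldha at 157 FPKM in the foot and 235 in the back (log2 -1.32 ± 0.09) and Pfkl at 2.69 and 14.1 (-2.64 ± 0.34). Translation factors had 5 lower and 0 higher of 25 (1 and 3 as deposited), among them Eef2 at 57.8 and 111 (-1.66 ± 0.11).

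**Figure D4:**
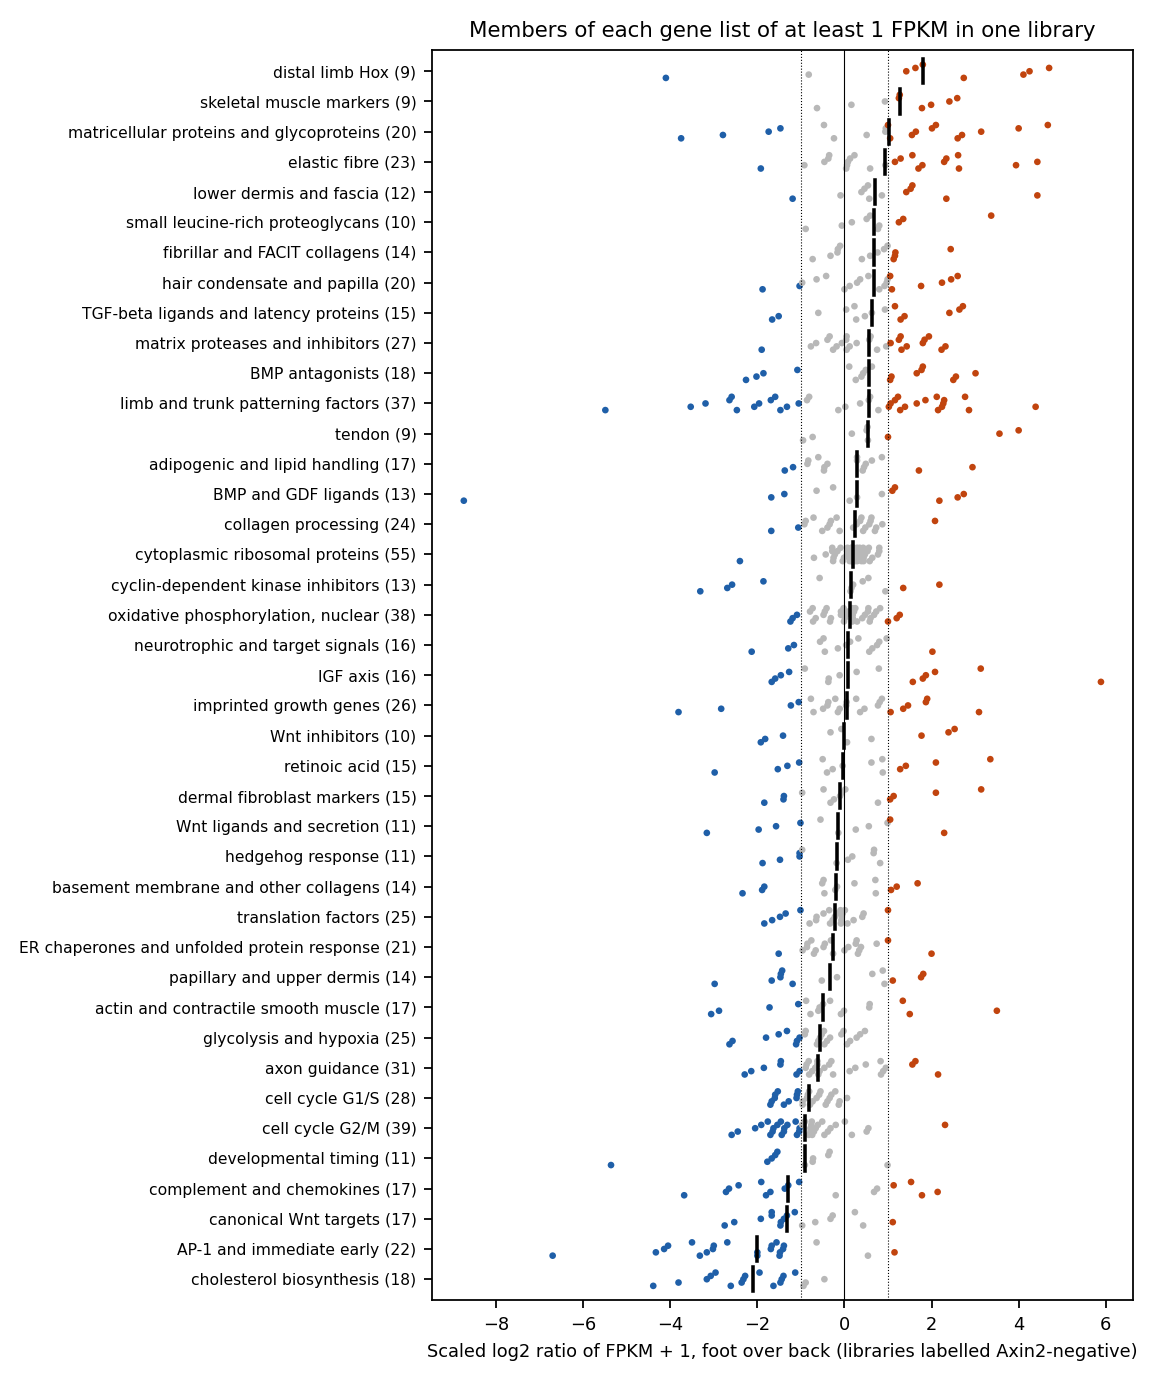
Scaled log2 ratio of foot over back (horizontal axis) for each member of at least 1 FPKM in either library of every list with 5 or more entered genes; the number of members plotted is in brackets, orange points are at least 2-fold higher and blue points at least 2-fold lower in the foot, and black bars are list medians. Cholesterol and immediate early genes have the lowest medians, at -2.11 and -2.0, and distal limb Hox genes the highest, at 1.80.

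The libraries labelled positive gave a second view of the same contrast with no library in common. Across 7138 genes entered in both pairs, 817 were higher in the foot between the libraries labelled negative, and 402 of these (49.2%) were also higher between those labelled positive, which is 48.7% of the 825 so called there. Of 919 lower genes, 470 (51.1%) were also lower, which is 43.1% of 1090. Opposite calls were made for 55 (6.73%) and 29 (3.16%). Over 6922 genes above 0 in all 4 libraries the ratios correlated with r = 0.62 and rho = 0.57, across genes that share these libraries. Both pairs compare the same skins and stages, so the positive pair is not a replicate of the foot-back difference. Rbp4, a retinol carrier gene, was an exception: it stood at 35.1 FPKM in the foot and 1.35 in the back, but was listed at 0 in the foot library labelled positive and stood at 3 in the back library labelled positive.

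**Figure D5:**
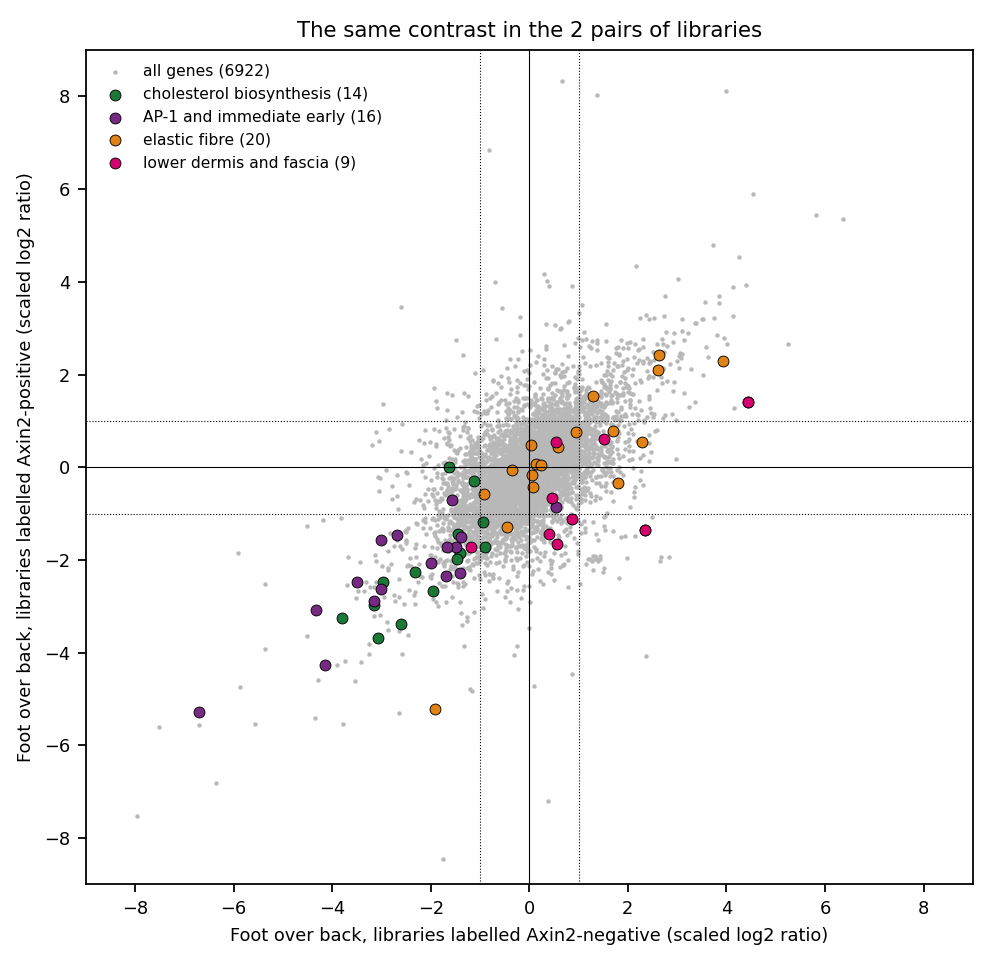
Scaled log2 ratio of foot over back between the libraries labelled Axin2-negative (horizontal axis) and between those labelled Axin2-positive (vertical axis), 1 point a gene, for 6922 genes above 0 in all 4 libraries; dotted lines mark 2-fold. Cholesterol and immediate early genes lie toward the lower left, elastic fibre genes spread to the right with several near 0 on the vertical axis, and lower dermis genes lie mostly right of 0 and below 0.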

How the data were processed

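The authors aligned the reads with TopHat and made the tables with Cufflinks on mm9, per the submitters' processing notes, with versions, settings, annotation release and the level of the bounds not given in the sources used here. Per the file headers, the deposited values are FPKM per gene or assembled locus, each with bounds on both sides and a status.

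FPKM was summed per symbol over entries of status OK (pandas 2.3.3, Python 3.11.15). The tables held 47223 entries for the foot and 41090 for the back, of which 10608 and 4644 had no name and were not used. Symbols joined in a locus of any of the 4 libraries were treated as 1 unit in all of them, with their entries summed (506 of the genes compared). A joined locus named here can therefore be a sum of separate entries in a given library. Left out were 430 units with another status or absent from a table. In all, 21 symbols altered to dates were restored and 1 was not. Factors were median ratios over 4966 genes of at least 5 FPKM in all 4 libraries (1.32 for the foot, 0.786 for the back). Of the genes compared, 16.2% in the foot and 17.0% in the back had an FPKM outside its own bounds. Gene types came by symbol from a GRCm38 annotation: 5768 single protein-coding genes, 1281 processed pseudogenes, which share reads with their parent genes, and 221 unmatched. Coordinates of genes are mm9, from the files. A list's calls count its genes of at least 5 FPKM, and its median covers those of at least 1 FPKM.

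The genes, lists and rules were chosen with earlier results of these data known. Named were Axin2, the 12 highest and 12 lowest ratios of genes well measured in both libraries, the highest genes listed at 0 in the other, and up to 4 highest and 4 lowest members a list; further list members, the limits' neighbours and Hmgcs1 were named after their values were seen. The calculation was tested on simulated data. Alternatives were the pseudocount, 3 other scalings, the FPKM minimum, zeros, bounds, repeated symbols and joined loci. Values of some list members are not reported here.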

Additional observations from a re-analysis of the deposited data

Results flagged for a closer look

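Some results went one way between the libraries labelled negative and the opposite way between those labelled positive; with 1 library a group this difference was not tested. Actb, the cytoplasmic beta-actin gene, had a ratio of foot over back of -1.06 on the log2 scale for the negative label and 1.2 for the positive label. Fbn1, the fibrillin gene, had 2.34 and -1.35. The list of lower dermis and fascia genes had a median of 0.71 for the negative label and -0.89 for the positive label. Skeletal muscle markers had a median of 1.27 and -0.75, with Myl1, a fast myosin light chain gene, at 12.1 FPKM in the foot and 0.541 in the back library labelled negative.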

How the results depend on the processing

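With no scaling, the 2-fold calls were 3003 higher and 423 lower genes. The FPKM minimum changed how many genes were counted. With at least 1 FPKM in either library, 1541 of 12749 genes were higher and 1795 lower, with 331 listed at 0 in the back and 341 in the foot. With at least 10 FPKM, 801 of 5633 were higher and 638 lower, with 74 and 56 listed at 0. With at least 5 FPKM in both, which leaves out every gene low in 1 library, 370 of 5527 were higher and 555 lower. Other alternatives were chosen after seeing the data. Of 5768 protein-coding single genes, 60 were listed at 0 in the back and 25 in the foot. Of 6289 genes with values inside their own bounds, 40 were listed at 0 in the foot. With at least 5 FPKM after scaling, 977 of 7777 genes were higher and 1205 lower. Other scalings, a pseudocount of 0.1 FPKM and the settings on bounds, repeated symbols and joined loci kept both counts within 1.5 times, from 993 to 1275 higher and 965 to 1155 lower. Without genes listed at 0, the medians of complement and chemokine genes and of endothelial markers turned to 0.68 and 0.37, from -1.29 and -1.06; fewer genes were then counted. Of up to 629 list and named genes recomputed under each alternative, 0 turned from a called direction to the opposite sign. This could hardly have come out otherwise. Alternatives that only left genes out kept each remaining ratio as it was. Leaving out the scaling shifts a log2 ratio by about 0.75, less than the 2-fold limit of 1. No paired analysis was possible because each group has 1 library. The foot's wider bounds limit low genes, and no value has a biological replicate.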

Other observations

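Of 6 complement and chemokine genes entered, 2 were higher in the foot and 3 lower. Ccl2, which draws monocytes, stood at 0.142 FPKM against 10.3 in the back (log2 -3.68 ± 0.37), and Cxcl1, which draws neutrophils, at 3.82 against 19.4, with a value outside its bounds. Ccl11, the eosinophil chemokine gene eotaxin, ran the other way at 8.48 against 0.537 (2.14 ± 0.46), but it was listed at 0 in the foot library labelled positive. Alpl, the tissue non-specific alkaline phosphatase gene used to mark dermal papilla and bone, stood at 21.4 against 0.39 (3.53 ± 0.58), and Ebf1, a transcription factor gene of adipocyte precursors and other mesenchyme, at 55.9 against 3.66, with a value outside its bounds.

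Of 17 axon guidance genes entered, 3 were higher and 4 lower, beside 13.9% and 13.1% over all genes, and as deposited 5 were higher and 2 lower. Efna1, an ephrin gene, stood at 17.4 FPKM in the foot and 1.74 in the back (log2 2.15 ± 0.33), while Efna5 stood at 12.3 and 39 (-2.29 ± 0.18) and the semaphorin gene Sema6d at 2.73 and 9.88 (-2.14 ± 0.26). Fgf7, an epithelial growth factor gene of dermis, stood at 14.9 and 1.45 (2.12 ± 0.29).

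Some genes listed at 0 had other values under the other label. Stab1, a scavenger receptor gene of macrophages and endothelium, was listed at 0 in the foot and 69.5 FPKM in the back, but stood at 62.2 in the foot and was listed at 0 in the back between the libraries labelled positive. Sept11, a septin gene, was listed at 0 in the foot and 55 FPKM in the back, and at 33.9 and 81.8 for the positive label. The largest FPKM belonged to small RNA loci, up to 193687042 for mmu-mir-2134-4 in the foot, which stood at 3042 in the back.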
